A study of Mus musculus with 3 samples.

Results

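The T cells of the lymphoid cluster were 87 single cells out of the 462 cells of deposited cluster 8 and of 12421 cells in all. A cell of cluster 8 was a member when its raw UMIs (unique molecular identifiers, each standing for 1 captured RNA molecule) of Cd3d, Cd3e, Cd3g and Trac summed to at least 2. The members came from 3 of the 4 brains: 29 from metastasis 1, 50 from metastasis 2, 8 from naive 1 and 0 from naive 2. The other 375 cells of cluster 8 served for comparison (155, 192, 10 and 18 cells in the same order of brains). Metastasis brains came from female C57BL/6 mice aged 2 to 3 months, about 2 weeks after E0771 mouse mammary carcinoma cells had been injected into the carotid artery. Naive brains came from C57BL/6 females of the same ages that carried no metastases. Brains of both conditions came from PBS-perfused mice; a kit based on papain dissociated the tissue, and Percoll gradients enriched the suspensions for immune cells. Each brain received antibodies to CD45, CD25, CD3e, CD4, CD11b and CD86 and a hashing antibody, and the brains were pooled for CITE-seq, which reads RNA and antibody tags from the same droplet (10x Chromium 3' v2). The labels describe a sample as 1 brain hemisphere, and the submitters' design text speaks of 6 pooled samples, whereas the tables used here hold 4 hashing antibodies. Because nothing states that the brains were prepared separately, spread between brains may be partly technical.

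T cells recognise antigen through a receptor made of variable chains, encoded in the Trac, Trbc, Trdc and Tcrg loci, held at the membrane with the CD3 proteins that pass the signal on through the kinase Lck and the adaptor Lat. CD4 marks helper and regulatory T cells and CD8 marks cytotoxic T cells, while CD25 is a chain of the interleukin 2 receptor carried at a high level by regulatory and recently activated T cells. In the healthy brain parenchyma T cells are rare, and brain metastases can hold more of them.

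Captured RNA was shallow. T cells held 506 to 15246 UMIs, with a median of 843, against a median of 1045 UMIs in the other cells of cluster 8. The 6 T cells above 9000 UMIs, 4 in metastasis 1 and 2 in metastasis 2, held 43.5% of the 176564 T cell UMIs. All 6 had UMIs of Krt8, an epithelial keratin on the carcinoma list, and together 27 of the 44 Krt8 UMIs of T cells, while Krt18, Epcam, Krt7 and Cldn4 were at 0 in every T cell. The part that a second cell in such droplets played was not tested. With all cells thinned to 500 UMIs, 9.70% of T cells had a Krt8 UMI, against 8.14% of clusters 6, 7 and 9. All 12421 deposited barcodes were distinct and each had a single hashing call, which cannot show a second cell from the same brain. The members were picked by their own RNA, so RNA differences from the other cells of cluster 8 are given as a description, without a test.

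Just inside the rule stood 23 cells with 2 UMIs of the 4 genes, and just outside it 41 cells with 1 UMI. Trbc2, the constant region of the receptor beta chain and no part of the rule, was at 959 CPM (counts per 1000000 UMIs of the summed cells) inside and 183 CPM outside. Tnfrsf4, encoding the costimulatory receptor OX40, was at 454 CPM inside and 113 CPM outside. The cells just outside therefore also held T cell RNA, whereas the 334 cells with 0 UMIs had 36.2 CPM of Trbc2 and 15.7 CPM of Tnfrsf4.

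The label held against its markers. All 5 markers given for these cells (Cd3d, Cd3e, Trac, Trbc2 and Tnfrsf4) were at least 2-fold higher than in the other cells of cluster 8 in both metastasis brains, although the rule itself used Cd3d, Cd3e and Trac. Trbc2 stood at 470 and 614 CPM in T cells of metastasis 1 and 2, against 47.9 and 46.3 CPM in the other cells, and at 2568 CPM in the 8 T cells of naive 1. Tnfrsf4 stood at 309 and 558 CPM in T cells of metastasis 1 and 2, against 19.7 and 34.0 CPM in the other cells, and no Tnfrsf4 UMI was found in naive 1 T cells. Over all genes at 50 CPM or more in T cells or in the other cells, 56 of 3294 (1.7%) were at least 2-fold higher in both metastasis brains. With every cell thinned to 500 UMIs, 37.8% of T cells had a Trbc2 UMI, against 4.57% of the other cells of cluster 8 and 0.10% of clusters 6, 7 and 9, the vascular and choroid plexus clusters used as background, whose median depth was 2112 UMIs.

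The genes that stood highest in T cells, after those of the rule, belonged to receptor signalling, costimulation and tissue residence. Of 3294 genes at 50 CPM or more in T cells or in the other cells, 56 were at least 2-fold higher in both metastasis brains (1.7%) and 84 at least 2-fold lower (2.55%). The log2 ratio, with 20 CPM added on both sides, was 3.29 for Tnfrsf4, 3.17 for Trbc2, 2.91 for Lat, 2.88 for Ikzf2 and 2.46 for Thy1. Ikzf2 encodes Helios, a transcription factor of regulatory and of some activated T cells, and Thy1 encodes a surface protein of mouse T cells. Ctla4, an inhibitory receptor for CD80 and CD86, followed with 2.25, Cxcr6, a chemokine receptor of tissue-resident T cells, with 2.23, and Icos, a costimulatory receptor, with 2.12. The GTPase gene Gimap1 stood at 2.09 and the unnamed gene model Gm8369 at 2.21.

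**Figure D1:**
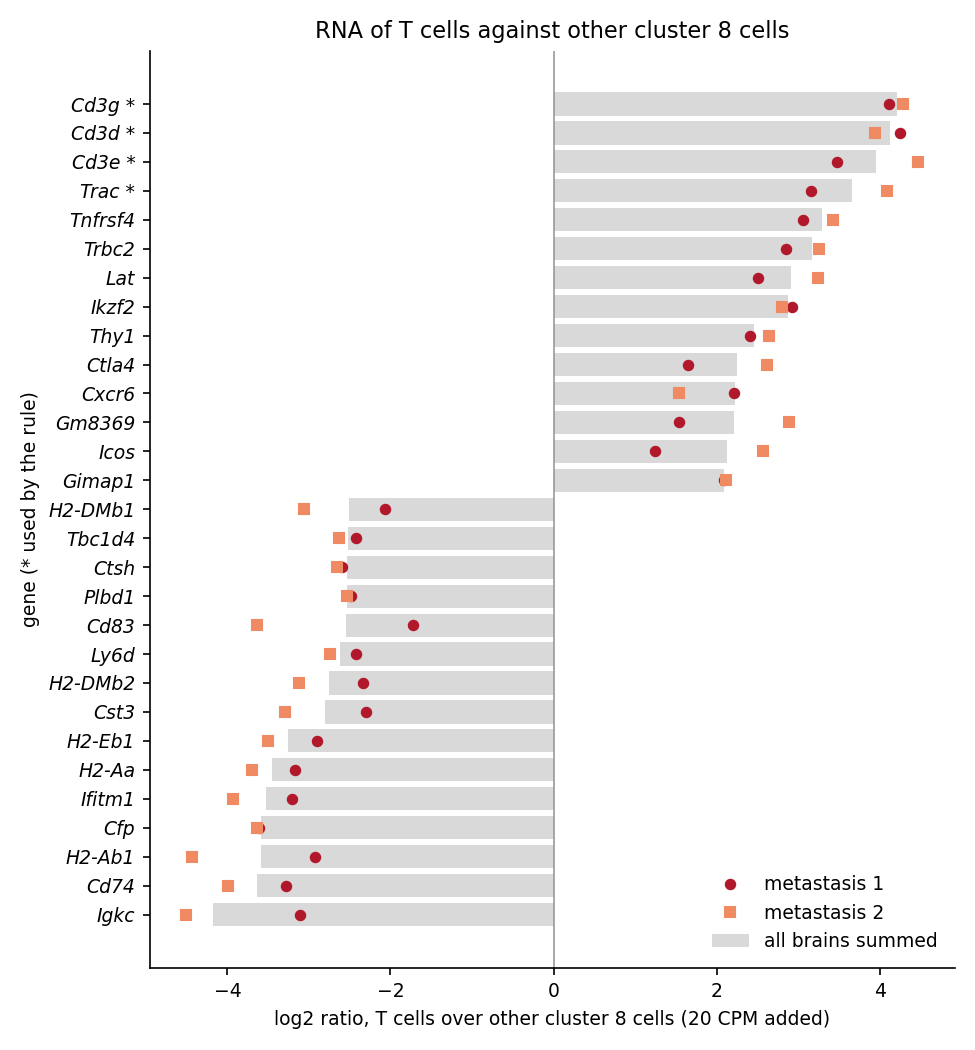
Log2 ratio of RNA in T cells over the other cells of cluster 8, with 20 CPM added, for the genes with the highest and the lowest ratios (15 each, less 1 among the highest). Grey bars show all brains summed, circles metastasis 1 and squares metastasis 2. Both brains stand on the same side of 0 for every gene drawn, and the asterisks mark genes used to choose the cells.

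The lowest ratios were held by genes of antigen presentation and of other immune cells in the cluster. Igkc, the immunoglobulin kappa constant region, had 2 UMIs in T cells and 386 in the other cells, a log2 ratio of -4.17. The class II genes H2-Ab1, H2-Aa and H2-Eb1 and their invariant chain Cd74 had log2 ratios of -3.59, -3.45, -3.25 and -3.64. They were not at 0 in T cells: Cd74 stood at 1460 and 860 CPM in T cells of metastasis 1 and 2, against 14398 and 13952 CPM in the other cells. Cfp, encoding the complement factor properdin, and Ly6d had no UMI in T cells, against 156 and 73 UMIs in the other cells. The comparison is set by who the other cells were, since 186 of the 375 were rich in class II RNA (2% or more of their UMIs) and 48 had at least 2 UMIs of natural killer (NK) cell markers.

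Against the NK marker cells alone, Nkg7 and Gzmb turned round. Nkg7, a granule protein of cytotoxic lymphocytes, stood at 545 and 961 CPM in T cells of metastasis 1 and 2, against 214 and 235 CPM in all other cells of cluster 8. Over all brains T cells had 810 CPM of Nkg7, however, against 1440 CPM in NK marker cells. Gzmb, encoding granzyme B, behaved in the same way, with 272 CPM in T cells, 123 CPM in all other cells and 913 CPM in NK marker cells. Gzma, encoding granzyme A, did not turn round and was at 113 CPM in T cells and 3804 CPM in NK marker cells. It is among the markers by which those cells were chosen, so its level there was partly fixed by that choice. Ncr1 and Klrb1c, defining NK receptors, had no UMI in T cells. NK receptor RNA was not absent, however, with 7 UMIs of Klre1 in T cells of the metastasis brains. Of the 12 NK markers 9 had UMIs in T cells, at 918 CPM summed over the list. NK marker cells, which 10 of the 12 served to choose, had 7948 CPM.

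Receptor and signalling genes formed the most complete group. All 16 genes of this list had UMIs in T cells, 11 reached 50 CPM, and these 11 were at least 2-fold higher in both metastasis brains. Their median log2 ratio was 2.91, against 0.11 over all 3294 genes, but the rule itself fixed 4 of them high. Without the rule genes, 7 of 12 genes reached 50 CPM, all 7 were at least 2-fold higher in both metastasis brains, and their median was 1.92. In this list and those below, a gene could reach 50 CPM through T cells alone, as Lat did (227 CPM against 12.7). The line therefore favours genes high in T cells, and genes that missed it enter neither the 2-fold counts nor the medians. Beside the rule genes and Trbc2, the list held Trbc1 with 57 UMIs, Lat with 40, the adhesion receptor Cd2 with 27, the kinase Lck with 26 and the adaptor Skap1 with 23. The kinase Zap70 had 7 UMIs, too few to describe further.

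Coreceptor RNA was sparse, so it sorts few of these cells. Cd4 had 2 UMIs in 2 T cells, Cd8a had 11 UMIs in 7 cells and Cd8b1 had 14 UMIs in 9 cells. A UMI of Cd8a or Cd8b1 was present in 14 of 87 T cells, 4 from metastasis 1 and 10 from metastasis 2. Genes of gamma-delta T cells (Trdc and the Tcrg constant regions) had a UMI in 15 T cells, and none of the 10 cells with Trdc also had Trac. Trdc, the receptor delta constant region, had 16 UMIs in T cells and 8 in the other cells of cluster 8.

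Costimulatory and regulatory genes were higher than in the other cells in part. In the costimulation list 8 of 8 genes had UMIs, 6 reached 50 CPM, and Tnfrsf4, Icos and Cd28 were at least 2-fold higher in both metastasis brains (median log2 ratio 1.66 over the 6). In the regulatory list 12 of 15 genes had UMIs, 8 reached 50 CPM, and 5 (Tnfrsf4, Ikzf2, Ctla4, Izumo1r and Il2ra) were 2-fold higher in both (median 1.70 over the 8). Foxp3, the defining factor of regulatory T cells, had 2 UMIs in 2 cells, and Il2ra, which encodes CD25, had 11 UMIs in 8 cells. Tnfrsf18, encoding the costimulatory receptor GITR, had 33 UMIs, and Izumo1r, a folate receptor family member of regulatory T cells, had 12. Tnfrsf4, Tnfrsf9, Tnfrsf18 and Ctla4 each stand on 2 of the lists.

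Inhibitory receptors were few. In that list 10 of 14 measured genes had UMIs and 5 reached 50 CPM, with a median log2 ratio of 0.71. Pdcd1, encoding PD-1, had 11 UMIs in 9 T cells, against 1 UMI in the other cells of cluster 8, with log2 ratios of 1.80 and 1.91 in metastasis 1 and 2. Lag3 had 6 UMIs and the exhaustion factor Tox had 5. At this depth a receptor with a few UMIs may be present in many more cells than those in which it was seen.

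Cytotoxic genes split by gene. All 12 of the list had UMIs and 7 reached 50 CPM. Nkg7 and Ctsw, encoding cathepsin W, were at least 2-fold higher in both metastasis brains, and Gzma and Klrk1, encoding the activating receptor NKG2D, at least 2-fold lower. Ccl5, a chemokine of effector lymphocytes and the most abundant gene of the list, stood at 1658 and 2077 CPM in T cells of metastasis 1 and 2, against 1787 and 3139 CPM in the other cells. Klrd1, encoding the CD94 chain of NK receptors that some CD8 T cells carry, stood at 272 and 235 CPM in T cells, against 519 and 507 CPM in the other cells. With all cells thinned to 500 UMIs, 11.5% of T cells had a Klrd1 UMI, against 0.36% in clusters 6, 7 and 9.

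Lists of cycling, interferon response, MHC class I, immediate early genes and integrins held no gene that was 2-fold different in both metastasis brains. Of the cell cycle list 10 of 11 genes reached 50 CPM, with a median log2 ratio of 0.12. The others were the type I interferon response (11 of 12 genes at 50 CPM, median -0.33), MHC class I (7 of 7, median -0.04), immediate early genes (8 of 9, median -0.38) and integrins (5 of 6, median -0.12). Ifi27l2a, an interferon-induced gene, had log2 ratios of 0.78 and 0.90 in metastasis 1 and 2. Chemokine receptors differed more, with a median of -0.78 over 4 genes at 50 CPM. Cxcr6 was higher, and the lower one was Ccr7, the lymph node homing receptor that dendritic cells also carry, with 7 UMIs in T cells and 168 in the other cells. Of the remaining lists, naive and memory genes had a median of 0.28 over 8 genes, cytokine receptors 1.15 over 5, and helper factors 1 gene at 50 CPM, Rora, at 1.68.

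RNA of other cell types was present in T cells at levels near those of their own markers, with 300 UMIs of Ttr against 109 of Trbc2. The 5 T cell markers summed to 2458 CPM and the 4 MHC class II genes to 2220 CPM. Of the 14 monocyte and macrophage markers all had at least 1 UMI, at 2005 CPM summed in T cells and 2413 CPM in the other cells of cluster 8. Lyz2, the myeloid lysozyme, led that list with 138 UMIs in 31 T cells, at log2 ratios of 1.30 and 0.59 in metastasis 1 and 2. Ttr, encoding transthyretin of choroid plexus, had a UMI in 82 of 87 T cells, and with thinning in 72.0% of T cells and in 86.6% of clusters 6, 7 and 9. Defining markers of B cells (Cd79a and Ms4a1), microglia (Tmem119, P2ry12 and Sall1), dendritic cells (Flt3, Xcr1 and Clec9a) and endothelium (Cldn5, Flt1 and Cdh5) had no UMI. The part that free RNA or a second cell played in the results below was not tested except where a value without the affected cells is given.

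The surface tags did not enter the rule, and 4 of the 6 were higher on T cells in both metastasis brains. CD4 had a mean log2(tag count + 1) of 1.85 and 2.07 on T cells of metastasis 1 and 2, against 0.92 and 0.87 on the other cells of cluster 8. CD25 had 1.16 and 1.14 on T cells, against 0.60 and 0.69 on the other cells. CD45, the leukocyte common antigen, had 6.15 and 6.36 on T cells, against 5.61 and 5.69 on the other cells. Within brains T cells exceeded the other cells by 1.07 ± 0.19 for CD4, 0.50 ± 0.08 for CD25 and 0.61 ± 0.09 for CD45 (SD, n = 2 brains).

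CD11b, an integrin of myeloid and NK cells, was lower on T cells, at 2.43 and 2.27 in metastasis 1 and 2, against 3.45 and 3.44 on the other cells. CD86, a ligand for CD28 and CTLA-4 on antigen-presenting cells, differed by -0.11 ± 0.01, and it was higher on T cells than on NK marker cells by 0.88. An exact two-sided sign-flip permutation over 2 brains cannot give a p below 0.5, and each of the 6 tags had p = 0.5. In naive 1 the 8 T cells had a mean CD4 tag of 0.84, against 0.83 on its 10 other cells, and CD25 had 0.86 against 0.48 there. CD45 and CD3e ran the other way in naive 1, with 4.73 and 0 on T cells, against 5.56 and 0.20 on the other cells.

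**Figure D2:**
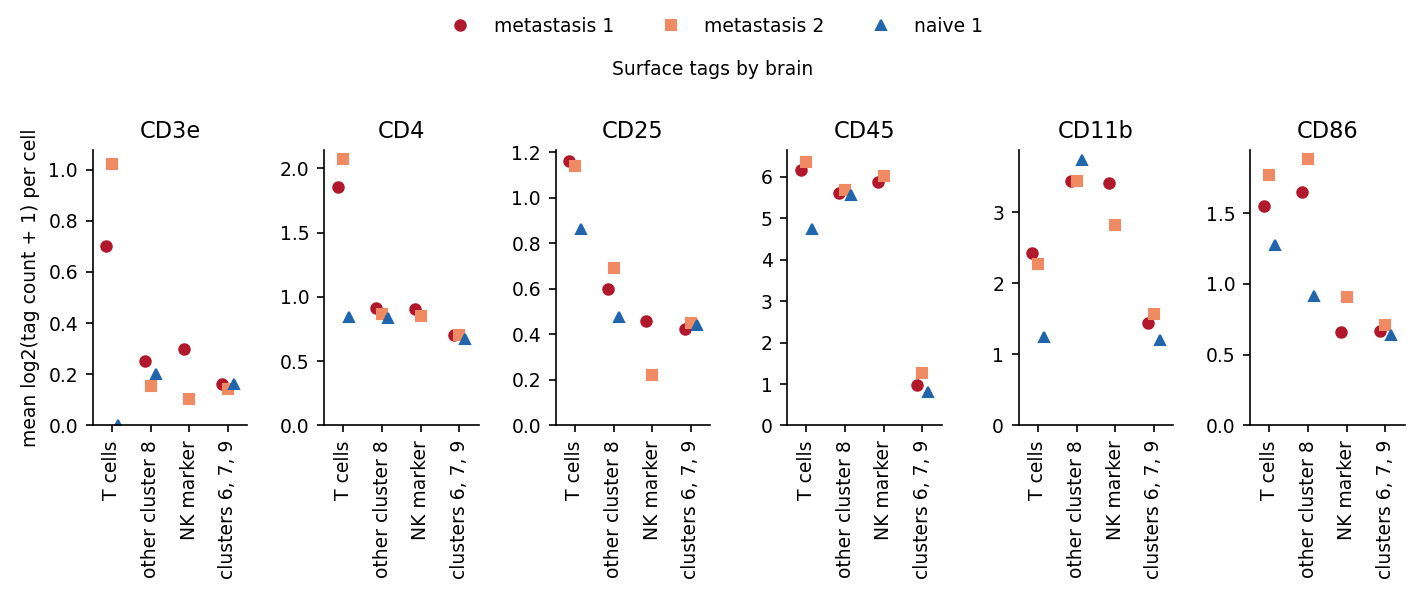
Mean log2(tag count + 1) per cell for each antibody in T cells, the other cells of cluster 8, their NK marker subset and clusters 6, 7 and 9, by brain (circles metastasis 1, squares metastasis 2, triangles naive 1). CD4, CD25, CD3e and CD45 stand higher on T cells than on the other cells of cluster 8 in both metastasis brains, and CD11b stands lower.

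CD3e, the tag that would mark every T cell, read out poorly. The median CD3e tag was 0 on T cells and 0 on the other cells, and 48 of 87 T cells had no CD3e tag. A single T cell of metastasis 2 carried 21201 of the 21281 CD3e tags counted on T cells, while the highest count on any other of the 12421 cells was 47. That cell had 10 CD4 tags, 1016 UMIs and 3 UMIs of the rule genes,. The mean log2 CD3e tag was 0.70 and 1.02 on T cells of metastasis 1 and 2, against 0.25 and 0.15 on the other cells, and the difference in metastasis 2 was 0.60 without that cell. No T cell of naive 1 had a CD3e tag.

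CD4 tags were unevenly spread among T cells. The count ranged from 0 to 53 with a median of 2, and 27 cells had none. The 95th percentile of CD4 tags in clusters 6, 7 and 9, cells that should lack CD4, was 3, so cells with at least 4 tags stood above it. This held for 39 of 87 T cells (44.8%), against 31 of 375 other cells of cluster 8 (8.27%). By brain they were 12 of 29 in metastasis 1, 25 of 50 in metastasis 2 and 2 of 8 in naive 1. The 99th percentile put the line at 11 tags, which 18 T cells reached, 6 in metastasis 1, 12 in metastasis 2 and 0 in naive 1.

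CD8 RNA and CD4 protein lay on different cells. None of the 39 T cells with at least 4 CD4 tags had a UMI of Cd8a or Cd8b1, whereas 14 of the 48 T cells below 4 tags did. These 14 cells had 0 to 2 CD4 tags. In clusters 6, 7 and 9, thinned to 500 UMIs, 0.01% of cells had a Cd8b1 UMI, 0.22% a Tnfrsf4 UMI and 0.09% a Ctla4 UMI. The 15 cells with Klrd1 and the 12 cells with Xcl1, a chemokine of NK and CD8 T cells that attracts cross-presenting dendritic cells, also had 0 to 2 CD4 tags each. At the other end, the 21 cells with Tnfrsf4 had a median of 13 CD4 tags and 19 of them had at least 4. The 14 cells with Ctla4 had a median of 11 CD4 tags, and both cells with Foxp3 had at least 11. Both cells with a Cd4 UMI had at least 4 CD4 tags. Depth differed in the same direction, with a median of 1823 UMIs in cells with Tnfrsf4 and 1057 UMIs in cells with CD8 RNA.

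**Figure D3:**
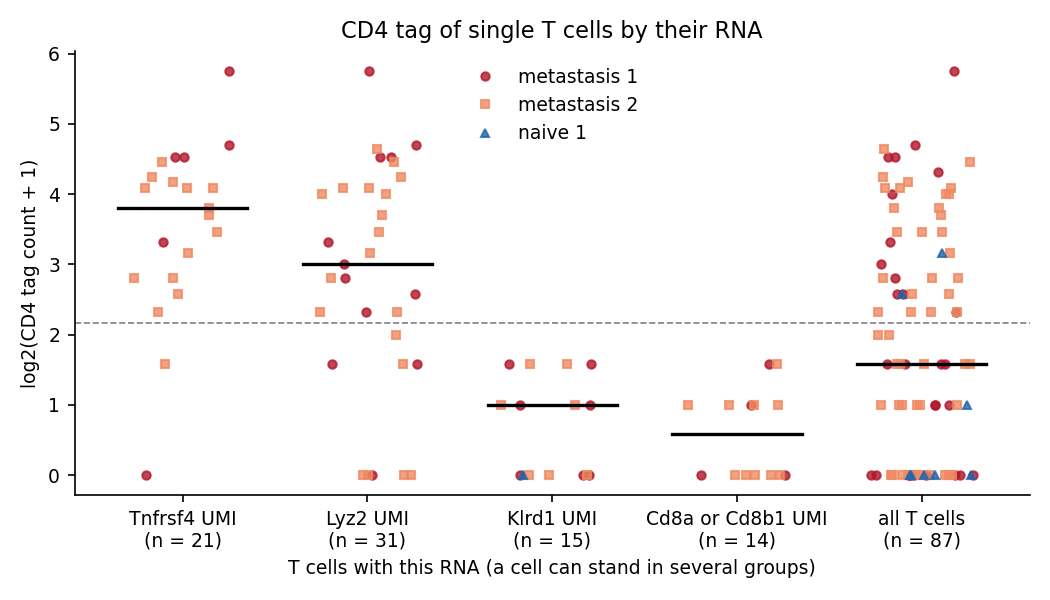
CD4 tags, as log2(tag count + 1), of single T cells grouped by the RNA found in them, with bars at the median and a dashed line between 3 and 4 tags. Cells with Klrd1 or with Cd8a or Cd8b1 all lie below the line, and 19 of 21 cells with Tnfrsf4 lie above it. A cell can stand in several groups.

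Cells were summed per metastasis brain into classes above and below the CD4 line, and all genes were compared with the brain as a block. The comparison as first laid out used the 99th percentile and asked for 20 T cells in both classes of a brain, which neither brain met. With that minimum lowered to 3 cells after the cell numbers were known, edgeR's quasi-likelihood test called 0 of 712 genes at the 99th percentile (0%), with 32 genes at an unadjusted p under 0.05. DESeq2 also called 0 there, with 7 genes at an unadjusted p under 0.05. At the 95th percentile, with 12 and 25 cells of at least 4 tags against 17 and 25 cells below, 7 of 662 genes passed (1.06%), 2 higher and 5 lower. In all 16 settings were fitted, and the genes called varied between them, down to 0 with RLE scaling at the 95th percentile.

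Tnfrsf4 RNA rose with the CD4 tag. In cells with at least 4 CD4 tags it had 24 UMIs in metastasis 1 and 49 in metastasis 2, against 1 and 1 UMI in cells below 4 tags. That is 618 and 1002 CPM above the line, against 23.8 and 24.6 CPM below it. The log2 fold change was 4.87 (SE 0.59; edgeR quasi-likelihood, Benjamini-Hochberg adjusted p = 0.00102). Tnfrsf4 was called in 9 of the 14 settings that tested it, with a log2 fold change between 1.85 and 5.02 and an adjusted p between 1.47e-09 and 0.9999 (edgeR or DESeq2). Over their own 14 settings, Klrd1 ranged from an adjusted p of 2.03e-08 to 0.945 and Lyz2 from 4.21e-09 to 0.9999.

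Lyz2, the myeloid lysozyme, moved with it. It had 73 and 50 UMIs in cells with at least 4 CD4 tags of metastasis 1 and 2, against 7 and 8 UMIs in cells below 4 tags (log2 fold change 2.91, edgeR adjusted p = 0.00342). The median CD11b tag was 7.5 above the line and 2 below it in metastasis 1, and 2 on both sides in metastasis 2. In the 17 cells with at least 4 CD4 tags and no Lyz2 UMI, Tnfrsf4 still had 24 UMIs among 29093, all of them from metastasis 2, against 1 among 78284 in the 39 cells below 4 tags without Lyz2. In metastasis 1 only 3 cells with at least 4 CD4 tags lacked Lyz2, and they held no Tnfrsf4 UMI. With cells limited to at most 10 CD11b tags, Tnfrsf4, Tnfrsf18, Actb and Ifi27l2a were called higher and Klrd1 lower. In metastasis 1 that limit left 6 cells with at least 4 CD4 tags, holding 5085 UMIs. Their only Tnfrsf4 UMIs were the 2 of a cell with 804 UMIs, against 1 among 31174 UMIs in the 15 cells below 4 tags. The part of myeloid RNA in the Tnfrsf4 difference of metastasis 1 was not tested further.

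Klrd1, Xcl1 and Nkg7 fell with the CD4 tag, while granzyme genes did not. Klrd1 had no UMI in cells with at least 4 CD4 tags, against 22 and 21 UMIs in cells below 4 tags of metastasis 1 and 2 (edgeR adjusted p = 0.00373), and was at least 14.99-fold lower over all brains against a floor of 3 counts in the summed class. Xcl1 likewise had 0 and 0 UMIs against 21 and 11 (edgeR adjusted p = 0.0131), at least 11.6-fold lower. Nkg7 fell by 1.81 on the log2 scale (SE 0.37; edgeR adjusted p = 0.0283), with 206 and 491 CPM in cells with at least 4 tags, against 858 and 1526 CPM below. The other genes that fell were Ly6c2, a surface protein of effector CD8 T cells and of monocytes that is also on the monocyte marker list (3 and 1 UMIs, against 27 and 11), and Rhob, a small GTPase (2 and 2 UMIs, against 31 and 13). Gzmb had 335 and 348 CPM above the line, against 262 and 172 CPM below, and Gzma had 180 and 102 CPM above, against 0 and 172 CPM below, and neither was called.

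Without the T cells above 9000 UMIs, the 95th percentile line gave 3 calls, Tnfrsf4 and Lyz2 higher and Klrd1 lower, and not Rhob. Of the 44 Rhob UMIs in cells below 4 tags, 15 remained without those cells. The Klrd1 and Tnfrsf4 calls also held in DESeq2 and without the block at the 95th percentile. Among cells with under 3 UMIs of other types' markers, Ttr not counted, both genes fell below the filter on low counts and were not tested. There Tnfrsf4 had 5 and 23 UMIs in the 8 and 13 cells of at least 4 tags, against 0 and 0 in the 8 and 16 cells below, in metastasis 1 and 2. Klrd1 had 0 and 0 UMIs above the line in those cells, against 5 and 3 below.

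**Figure D4:**
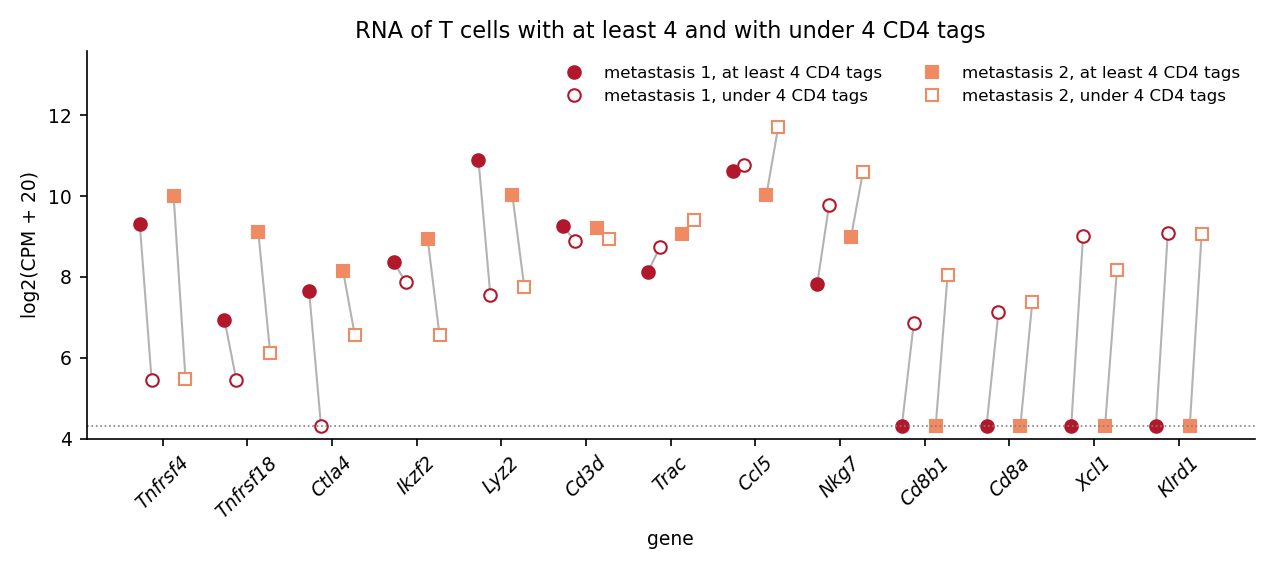
Level of selected genes, as log2(CPM + 20), in T cells with at least 4 CD4 tags (filled) and under 4 CD4 tags (open) of metastasis 1 (circles) and metastasis 2 (squares), with lines joining the classes of a brain. The dotted line marks 0 CPM. Tnfrsf4 is high only in filled points and Klrd1 and Xcl1 only in open ones, while Cd3d is similar in both.

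Receptor genes, of which Cd3d, Cd3e, Cd3g and Trac chose the cells, stood level or lower above the line. Cd3d had 23 and 28 UMIs in cells with at least 4 CD4 tags of metastasis 1 and 2, against 19 and 19 UMIs in cells below 4 tags, a ratio of 1.18 (95% counting interval 0.78 to 1.80) over all brains. Trac had 10 and 25 UMIs above the line, against 17 and 27 below, a ratio of 0.78 (0.48 to 1.24). Ratios were 0.52 (0.36 to 0.77) for Cd3g, 0.60 (0.36 to 0.97) for Cd3e, 0.53 (0.29 to 0.93) for Trbc1 and 0.69 (0.46 to 1.02) for Trbc2, and none of these genes was called at the 95th percentile. These intervals cover counting error only.

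Several genes not called at the 95th percentile over all T cells also differed in counts. Cd8a and Cd8b1 had 0 UMIs in cells with at least 4 CD4 tags, against 11 and 14 UMIs in cells below 4 tags, at least 3.75-fold and 4.77-fold lower. Ctla4 had 7 and 13 UMIs above the line in metastasis 1 and 2, against 0 and 3 below. Tnfrsf18 had 4 and 26 UMIs above, against 1 and 2 below. Ikzf2 had 12 and 23 UMIs above, against 9 and 3 below, and Il2ra had 5 and 5 above, against 0 and 1 below. All 4 are on the regulatory list, and each was higher above the line in both brains.

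Tnfrsf4 and Tnfrsf18 are neighbours on mouse chromosome 4, and their promoters are shown because RNA of both was higher above the CD4 line in both brains. A UMI of both was found in 15 T cells, of Tnfrsf4 alone in 6 and of Tnfrsf18 alone in 7. RefSeq promoter windows (GRCm38.p6, 250 bases before to 50 after the start, plus strand) lie at chr4:156013445-156013744 for Tnfrsf4 and chr4:156026072-156026371 for Tnfrsf18, 12627 bases apart. Capitals mark GGAAA on either strand, the core bound by NFAT, a factor activated by T cell receptor signals. It is found in 61.3% of 32851 promoters of this length, 1 match for Tnfrsf4 and 2 for Tnfrsf18. TGTGGT, the core of Runx sites, has no match in these windows on either strand and is found in 16.8% of all promoters.
Tnfrsf4: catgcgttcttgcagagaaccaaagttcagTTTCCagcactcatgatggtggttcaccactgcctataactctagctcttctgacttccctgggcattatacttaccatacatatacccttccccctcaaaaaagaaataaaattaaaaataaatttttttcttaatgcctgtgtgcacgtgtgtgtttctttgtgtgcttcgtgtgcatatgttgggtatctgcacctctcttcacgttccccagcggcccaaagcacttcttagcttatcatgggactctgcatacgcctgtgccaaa
Tnfrsf18: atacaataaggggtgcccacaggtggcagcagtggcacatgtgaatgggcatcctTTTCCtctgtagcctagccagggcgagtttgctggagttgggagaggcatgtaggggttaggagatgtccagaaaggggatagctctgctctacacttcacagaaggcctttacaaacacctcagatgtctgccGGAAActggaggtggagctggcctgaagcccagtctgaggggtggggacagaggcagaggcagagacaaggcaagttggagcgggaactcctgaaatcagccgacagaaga

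Summed over lists, costimulation and regulatory genes were higher and cytotoxic genes lower in cells with at least 4 CD4 tags, in both metastasis brains. The costimulation list had 978 and 2106 CPM above the line, against 286 and 443 CPM below. Without Tnfrsf4 and Tnfrsf18 the list had 10 and 28 UMIs above, against 10 and 15 below, so in metastasis 1 those genes carried the difference. The regulatory list, which shares Tnfrsf4, Tnfrsf9 and Tnfrsf18 with it, had 2085 and 3721 CPM above, against 1073 and 936 CPM below. The cytotoxicity list had 2368 and 2065 CPM above, against 3671 and 6179 CPM below.

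Cell cycle genes had 3655 and 5091 CPM in cells with at least 4 CD4 tags, against 1406 and 3102 CPM in cells below 4 tags, and Ccnb2, a mitotic cyclin, had 4 and 15 UMIs against 1 and 2. MHC class II genes differed between brains, with 3089 and 3046 CPM above the line, against 2622 and 172 CPM below. The remaining lists, among them interferon response and MHC class I, did not lie on the same side in both brains or differed by under 2-fold in both, except for coreceptors and for naive and memory genes, which were lower above the line, and helper factors, which were over 2-fold higher in metastasis 1.

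**Figure D5:**
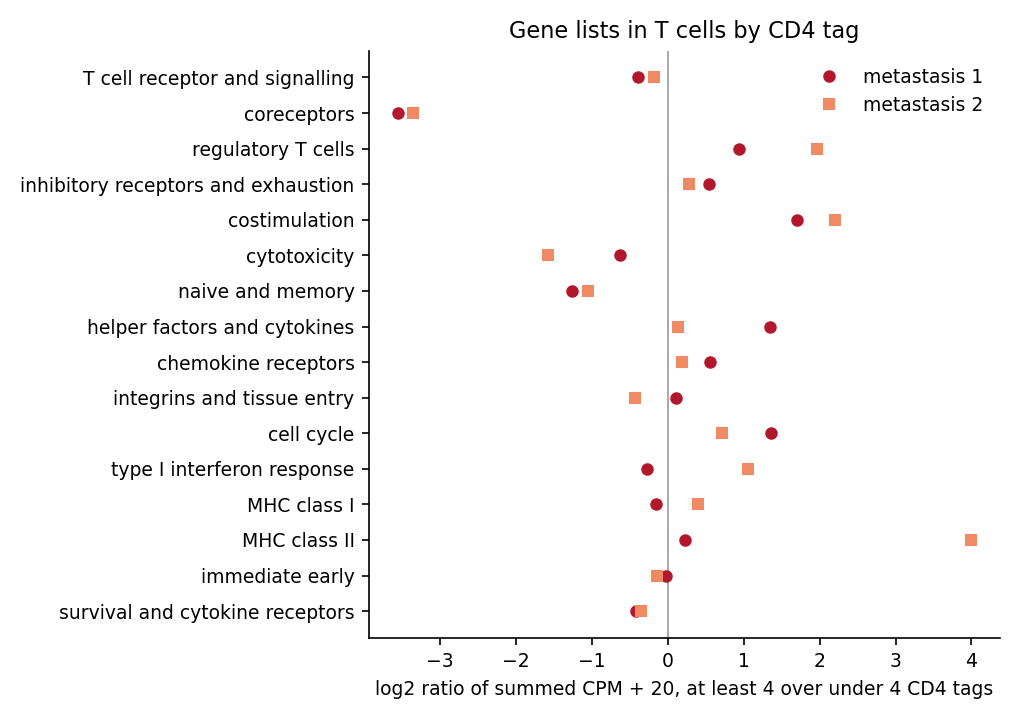
Log2 ratio of the summed CPM of each gene list, with 20 CPM added, in T cells with at least 4 CD4 tags over those with under 4 CD4 tags, for metastasis 1 (circles) and metastasis 2 (squares). Costimulation and regulatory lists lie right of 0 and cytotoxicity left of 0 in both brains.

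CD25 tags went with CD4 tags. Of 24 T cells with at least 3 CD25 tags, the line above the 95th percentile of clusters 6, 7 and 9, 21 also had at least 4 CD4 tags, and 45 T cells stood below both lines. Over the 87 cells Spearman's rho between the tags was 0.56, as a description of cells that share libraries. The tags also followed depth (rho of CD25 with UMIs per cell 0.41, of CD4 0.21). Other tags rose with both as well. For CD45, CD3e and CD11b, rho was 0.45, 0.43 and 0.40 with CD4, and 0.43, 0.32 and 0.44 with CD25. CD86 did so less, at 0.03 with CD4 and 0.14 with CD25. The cell with most CD25 tags, 72, came from metastasis 1 and had 53 CD4 tags and 11 Tnfrsf4 UMIs, and also 30 Lyz2 UMIs and 55 CD11b tags. Il2ra had 8 UMIs in the cells with at least 3 CD25 tags and 3 UMIs in the others.

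The CD25 comparison rested on few cells. At the 99th percentile (at least 6 tags) it held 3 and 4 cells in metastasis 1 and 2, under the minimum of 10 first set, and with the minimum lowered to 3 edgeR called 0 of 770 genes (0%), with 22 at an unadjusted p under 0.05. DESeq2 called 0 there too, with 8 at an unadjusted p under 0.05. At the 95th percentile, with 7 and 15 cells against 22 and 35, edgeR called 20 of 675 genes (2.96%), 5 higher and 15 lower, while DESeq2 called 3, all lower. Median depth was 1707 UMIs in cells with at least 3 CD25 tags and 756 UMIs in the others, and whether depth shaped these calls was not tested.

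Ccl5 was the gene called most often. It had 16 and 37 UMIs in cells with at least 3 CD25 tags of metastasis 1 and 2, against 118 and 149 UMIs in cells below 3 tags (log2 fold change -2.45, SE 0.28; edgeR adjusted p = 7.66e-15). It was called lower in 9 of 14 settings, with an adjusted p between 8.27e-16 and 0.998 (edgeR or DESeq2). Klrd1 had 0 and 0 UMIs, against 22 and 21, and Xcl1 had 0 and 0, against 21 and 11 (edgeR adjusted p = 1.26e-07 and 0.000296). Tnfrsf4 rose, with 24 and 39 UMIs, against 1 and 11 (log2 fold change 2.30, SE 0.47; edgeR adjusted p = 8.49e-05), and Lyz2 rose with it, with 68 and 46 UMIs, against 12 and 12.

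H2-Aa and H2-Eb1, class II genes, and H2afz, a histone variant of cycling cells, were the other genes that rose. For H2-Aa and H2-Eb1 the direction turned between the 99th and the 95th percentile. The nuclear RNA Malat1 fell, with 349 and 459 UMIs against 778 and 881, as did the receptor genes Trbc1, Cd3e and Cd3g, of which Cd3e and Cd3g belong to the rule. Without the cells above 9000 UMIs, 5 calls were made: Tnfrsf4, Lyz2 and H2afz higher and Ccl5 and Klrd1 lower.

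The share of T cells depended on the cells it was taken from and passed no test between metastasis and naive brains. T cells were 15.8% (95% exact binomial interval 10.8 to 21.8) and 20.7% (15.7 to 26.3) of cluster 8 cells in metastasis 1 and 2, against 44.4% (21.5 to 69.2) in naive 1 and 0 of 18 cells in naive 2, which allows a share of up to 16.7% by the floor of 3 cells and 18.5% by the exact interval. The means were 18.2% ± 3.47 with metastases and 22.2% ± 31.4 in naive brains (SD, n = 2 each; exact two-sided permutation test, p = 1, smallest possible 0.333). Of all cells outside clusters 0, 1, 3 and 4, the share was 1.74% and 2.39% in metastasis 1 and 2, against 1.59% and 0% in naive 1 and 2 (exact permutation p = 0.333, the smallest possible). A share of captured cells says nothing of the number of T cells in a brain.

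Naive T cells could not be compared by a test, with 8 cells and 6231 UMIs in 1 brain. Values below are for the 73 metastasis T cells of up to 9000 UMIs (93478 UMIs) and the 8 cells of naive 1, with 95% exact Poisson intervals for counting error only. Cxcr6 had 128 CPM (66.3 to 224) in metastasis T cells, in 8 cells, against 1123 CPM (452 to 2315) in naive 1 T cells, in 3 of 8 cells. Trbc2 had 899 CPM (717 to 1113), against 2568 CPM (1468 to 4170) in naive 1 T cells. Ccl5 had 2910 CPM (2574 to 3277), against 5617 CPM (3912 to 7812) in naive 1 T cells. Bcl2, an inhibitor of cell death, had 53.5 CPM (17.4 to 125), against 802 CPM (261 to 1873). For these genes, chosen after their values were seen, and for Junb, Ttr, Lyz2 and Trac, the intervals did not overlap. Lyz2 had 1091 CPM (890 to 1325) in metastasis T cells, against 0 UMIs in naive 1 (0 to 592 CPM). How many of all genes had intervals apart was not counted. A single naive brain gives no measure of spread between brains. Ttr, the choroid plexus gene, had 2525 CPM in metastasis and 5136 CPM in naive 1 T cells.

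Some genes had no UMI in naive 1 T cells, whose depth sets a limit. Tnfrsf4 had 653 CPM (499 to 838) in metastasis T cells, against 0 UMIs in naive 1, where 3 counts would be 481 CPM. Trac had 813 CPM (641 to 1018) in metastasis T cells and 0 UMIs in naive 1, whose 8 members were chosen through the CD3 genes alone. Gzmb had 417 CPM (297 to 570) in metastasis T cells and 0 UMIs in naive 1, a difference not detectable at this depth.

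T cell RNA was also found in cluster 2, a myeloid cluster. There 120 of 1796 cells met the same count of at least 2 rule UMIs, 53 in metastasis 1, 67 in metastasis 2 and 0 in either naive brain, with a median of 3477 UMIs and 292.5 CD11b tags, against 3 CD11b tags in the T cells of cluster 8. To set them side by side, UMIs were counted per 100 UMIs of the 4 rule genes. Ctla4 stood at 6.38 in the T cells of cluster 8 and 6.28 in those cluster 2 cells, Cd8b1 at 3.72 and 7.21, Lat at 10.6 and 17.2, Ccl5 at 94.4 and 157, and Trdc at 4.26 and 0.93. Other genes differed in opposite directions by brain. Tnfrsf4 stood at 18.5 in T cells and 10.7 in the cluster 2 cells of metastasis 1, and at 22.8 and 30.9 in metastasis 2. Xcl1 stood at 15.6 in T cells and 3.55 in the cluster 2 cells of metastasis 1, and at 5.02 and 33.9 in metastasis 2. Klrd1 stood at 16.3 and 11.2 in metastasis 1, and at 9.59 and 12.02 in metastasis 2. Lyz2 told the sets apart, at 36.7 in T cells and 1321 in the cluster 2 cells.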

How the data were processed

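UMI counts of RNA and antibody tag counts were used as deposited. Per the submitters' processing notes they were made with Cell Ranger 3.0.2 and Seurat 3.0.1 on mm10, and no source used here states their settings. The deposited percent of mitochondrial UMIs reached 24.9% and the deposited hashing margin is a score; cells held at least 500 UMIs. Clusters and hashing calls were the authors' own, as deposited. Every deposited cell had a single hashing call, no doublet caller was run, and doublets within a brain were not called.

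UMIs were summed per brain and class and compared with edgeR 4.0.16 (TMM, filterByExpr, brain as block, Benjamini-Hochberg adjusted p under 0.05; R 4.3.3, limma 3.58.1) or DESeq2 1.42.0. Each class holds cells of the same suspension, so classes are paired by brain, which the design took as a block. The planned minimum of 20 T cells (CD4) or 10 (CD25) per class was not met and was lowered to 3 after the cell numbers were seen. Thinned shares of cells are expectations over draws of 500 UMIs per cell. Levels are counts per 1000000 UMIs, with 20 CPM added for ratios and a minimum of 50 CPM; the 95% intervals are exact and cover counting error only, and the floor is 3 counts. Descriptions used Python 3.11.15. For each tag, only the edgeR fit at the 95th percentile was run on simulated counts, and its outcome is not reported here.

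Members, lists and tests were chosen with earlier results of these data known. Named genes were the markers, listed genes of at least 3 UMIs, the 15 highest and 15 lowest ratios, and up to 15 genes called per direction. Alternatives changed the rule's UMI minimum, tag percentile, scaling, filter, block, added CPM, depth, other cell types' RNA and the comparison cells. Some genes that these rules name are not reported here. Promoter sequences are RefSeq's.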

Additional observations from a re-analysis of the deposited data

How the results depend on the processing

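Counts of genes 2-fold higher or lower in T cells (56 and 84) were the least stable: 246 to 276 and 235 to 255 with 1 metastasis brain left out, where only 1 brain has to pass, 311 and 634 in cells under 3 UMIs of other types' markers, 213 and 294 with Ttr not counted, 142 and 226 with cells of at least 1000 UMIs weighted equally (the expectation of thinning to 1000 UMIs), 133 and 168 without cells over 9000 UMIs, 102 higher with 5 CPM added, and 151 higher against NK marker cells. Log2 ratios that turned were Gzmb (-0.31 in cells under 3 such UMIs) and, against NK marker cells, Igkc (0.65), Cst3 (0.16), Nkg7 (-0.81) and Gzmb (-1.68). Tag differences were CD11b -0.96, CD25 0.31 and CD86 -0.21 with at least 1 rule UMI; CD11b -0.94 and CD86 -0.084 with at least 3; CD86 -0.12 without deep cells; CD11b -1.51, CD25 0.31, CD45 0.50 and CD86 -0.45 in cells under 3 UMIs of other types, Ttr not counted; and CD11b -0.77, CD25 0.81, CD45 0.31 and CD86 0.88 against NK marker cells. Metastasis minus naive shares were 2.78 (cluster 8) and 0.16 (all cells) percentage points with at least 3 rule UMIs, 1.54 and 0.074 in cells under 3 UMIs of other types, and with 1 brain left out -26.2 to 18.2 and -0.72 to 0.68, with 0.11 among the turned values. CD4 calls (higher, lower; 0 and 0 at the 99th percentile, also with RLE, DESeq2 and no replicate block) were 2 and 8 with no filter, 1 and 2 with at least 3 rule UMIs, and 5 and 3 without deep cells. At the 95th percentile they were 2 and 5, 2 and 1 with DESeq2, 0 and 0 with RLE, 4 and 7 with no filter, 2 and 1 with no replicate block, 2 and 1 without deep cells, 2 and 0 in cells under 3 UMIs of other types, Ttr not counted, and 4 and 1 with at most 10 CD11b tags. CD25 calls (0 and 0) were 0 and 5 with no filter, and at the 95th percentile 5 and 15, 0 and 3 with DESeq2, 5 and 19 with RLE, 4 and 11 with no filter, 3 and 11 with no replicate block, 3 and 2 without deep cells, 6 and 4 in cells under 3 UMIs of other types, Ttr not counted, and 0 and 1 with at most 10 CD11b tags. H2-Aa turned at the 95th percentile (log2 1.79, DESeq2 1.89, RLE 1.74, no filter 1.77, no replicate block 1.73, no deep cells 1.53), as did H2-Eb1 (1.90, 2.22, 1.85, 1.88 and 1.80 for the first 5 of these). The cause of these changes was not tested. The settings on deep cells, on Ttr, on CD11b tags, on NK marker cells and those joined to the 95th percentile were chosen after seeing the data. Leaving out a brain from the tag comparisons leaves no residual degrees of freedom, so it was not run. A split by tag share (0 high cells), the tag splits in cells under 3 UMIs of other types with Ttr counted, the 99th percentile CD25 split with at least 3 rule UMIs or with cells of other types' RNA left out, and RNA of metastasis against naive T cells were not run for lack of cells. Depth limits all results: for a gene at 0 in naive 1 T cells, the floor of 3 counts is 481 CPM and the exact upper bound 592 CPM.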
